A study of Homo sapiens with 6 samples.

Results

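The 51 genes described here encode the machinery that licenses replication origins and builds and runs the DNA replication fork: the origin recognition complex, the licensing factors, the MCM helicase and its activators, the replicative polymerases, the sliding clamp and its loader, and the enzymes that finish the new strand and supply its nucleotides and histones. They were chosen by name, not by their values, and all 51 were found among the 62710 gene rows analysed. The study sequenced RNA of parental H526 cells, which come from a small cell lung cancer, and of a resistant derivative of these cells, with 3 libraries per group from RNA collected on 3 occasions. Onvansertib is an inhibitor of the mitotic kinase PLK1. The resistant cells were selected in 10 nM onvansertib, raised stepwise, and grew in 75 nM after a year. Libraries are numbered 1, 2 and 3 (parental) and 7, 8 and 9 (resistant). The resistant cells are a single selected line, so the 3 libraries of a group are repeat collections of 1 line and the p-values measure the spread between collections. Resistance, continued exposure to the drug and the year in culture cannot be told apart in this design.

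A replication origin is licensed when the origin recognition complex, with CDC6 and CDT1, loads the ring of MCM2 to MCM7 around DNA in an inactive form. Geminin, encoded by *GMNN*, binds CDT1 and blocks loading once S phase has begun. Firing then follows from the kinase CDC7 with its activator DBF4 and from the recruitment of CDC45 and the GINS complex, which complete the active CMG helicase. DNA polymerase alpha with primase starts each strand, polymerase epsilon extends the leading strand and polymerase delta the lagging strand, both held by the PCNA clamp that the RFC complex loads. Many of these genes are transcribed late in G1 and in S phase through E2F factors, so their RNA level in a culture depends on the share of cycling cells. In bulk RNA, fewer cells in S phase and less RNA per cell cannot be told apart.

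The values are gene counts that the authors obtained from paired-end reads with RSEM and normalized with DESeq2 between libraries. Per library they summed to 24820000 to 25370000 (parental) and 23660000 to 24370000 (resistant). Pearson correlations between libraries over log2 values were 0.982 to 0.985 within groups and 0.941 to 0.948 between groups. The labelled cell type was checked against its markers. *POU2F3*, the factor that defines the tuft cell-like type of small cell lung cancer, was at 24511 to 26809 in parental and 26844 to 27873 in resistant libraries and did not pass the test. The other 5 of 6 tuft markers did, *TRPM5* (1.77 on the log2 scale), *SOX9* (0.34) and *GFI1B* (0.20) higher and *AVIL* (-0.80) and *ASCL2* (-0.47) lower in resistant cells. The summed level of the neuroendocrine markers *NEUROD1*, *INSM1*, *CHGA* and *SYP* was 7029 to 8468 in parental and 1454 to 1689 in resistant libraries. This sum was carried by *INSM1*, with group means of 6091 in parental and 1253 in resistant cells, and by *SYP* (1334 and 301). *CHGA* had means of 254 and 12.8, and *NEUROD1*, at 2.2 and 0.4, was too low to be tested. The summed level of 8 immune, fibroblast and endothelial markers was 314 to 442 in parental and 702 to 805 in resistant libraries, carried by *VWF* and *COL1A1*, with *CD3E* at 0 and *PTPRC* and *PECAM1* at or near 0 in every library. Their part in the differences below was not tested.

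The share of replication genes that changed was near that of all genes, and the sizes of their changes were smaller. Of the 51 members, 18 (35.3%) had an adjusted p under 0.05 by limma with Benjamini-Hochberg adjustment over all genes tested, against 37.7% of the 16347 genes tested. Of the 18, 4 were higher and 14 lower in resistant cells. Of the 6161 genes past the threshold among all genes, 2917 were higher and 3244 lower, or 17.8% and 19.8% of all genes tested. The split was thus more uneven in the members. The 14 lower members were *ORC5*, *GMNN*, *MCM2*, *MCM7*, *CDC45*, *DBF4*, *POLA1*, *POLD1*, *POLD2*, *POLE*, *RFC2*, *RFC5*, *LIG1* and *RRM2*, and the 4 higher members were *TOPBP1*, *POLE2*, *RPA2* and *CHAF1B*. With quantile normalization of the libraries the split was 8 higher and 11 lower of 19. With TMM scaling it was 3 higher and 15 lower of 18. The size of the surplus of lower members thus depended on the scaling, and lower members outnumbered higher ones under both. The count was 11 in limma without its intensity trend, and with 1 library left out it was 14 to 16, with 2 higher members without resistant library 7 and 9 lower members without resistant library 8. The groups did not overlap for 26 of the 51 members (51%), against 49.9% of all genes.

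The median log2 fold change, resistant over parental on the log2(value + 1) scale, was -0.04 over the members and 0.00 over all genes. Its median size without regard to sign was 0.17 over the members and 0.30 over all genes, and 6 members (11.8%) differed by more than 0.5 against 31.1% of all genes. The members are well-expressed genes, with group means of the parental libraries between 422 and 24300. Among the 8641 genes with a mean at least as high as the lowest member, 43.8% passed the threshold, the median size was 0.21 and 17.3% differed by more than 0.5. The median SD between libraries of a group was 0.09 on the log2 scale in the members against 0.15 over all genes. Over those 8641 genes it was 0.10, near that of the members. The members' values summed to 202400 to 209800 in the parental and 181300 to 194400 in the resistant libraries, or 0.811% to 0.827% and 0.766% to 0.798% of all values. The most abundant members weigh most in these sums. The group means of *MCM2* were 24254 in parental and 20911 in resistant cells, and those of *MCM7* 22832 and 13997.

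**Figure D1:**
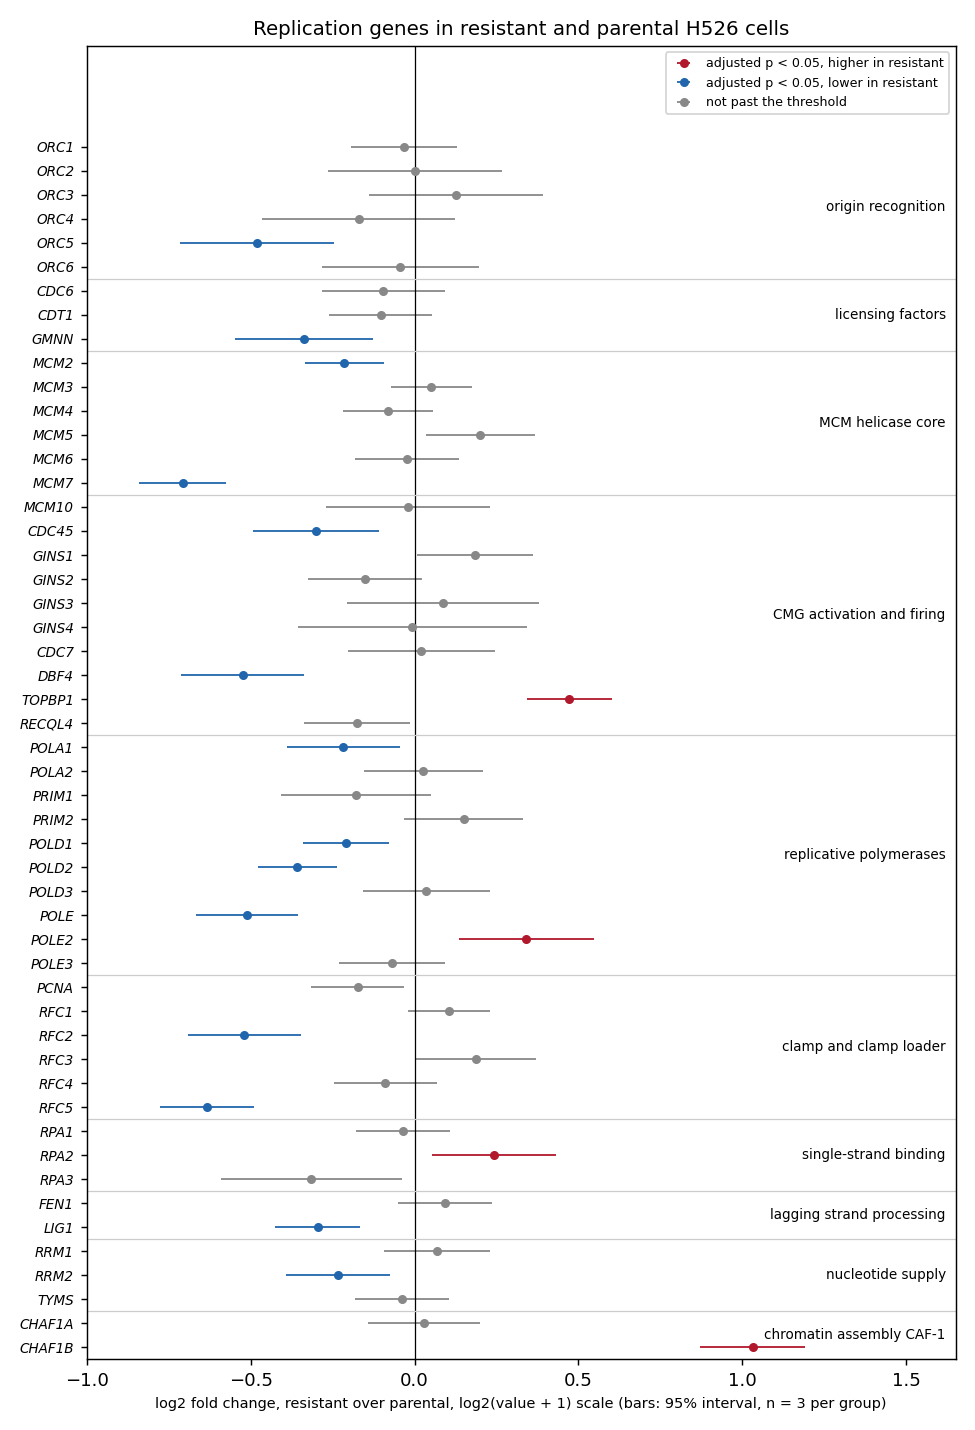
Log2 fold change of each of the 51 replication genes, resistant over parental, with its 95% interval from limma (n = 3 libraries per group), ordered by role. Red points are the 4 higher and blue points the 14 lower members past an adjusted p of 0.05, and most grey points lie within 0.2 of 0.

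**Figure D2:**
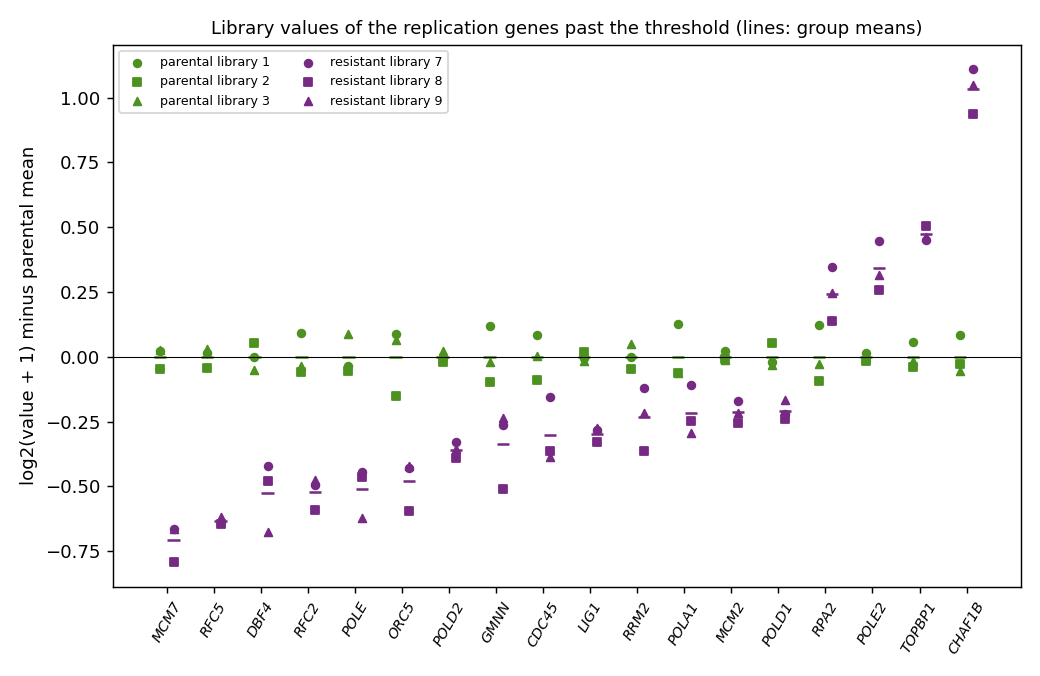
Log2 difference of each library from the parental mean for the 18 members past the threshold, with parental libraries 1 to 3 and resistant libraries 7 to 9 as separate points. In all 18 genes every resistant library lies on 1 side of every parental library, and CHAF1B stands farthest from 0.

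Promoter sequence was read from RefSeq windows (GRCh38.p14) of 250 bases before to 50 after the start, found for 44 of the 51 members. E2F-type letters, TTTCCCGC, TTTGGCGC, TTTCGCGC or TTTGCCGC on either strand, were in 19 of the 44 windows (43.2%), against 3.33% of all 27305 windows and 5.28% of the 11644 windows of tested genes. They were in 2 of 3 windows of higher members, 5 of 14 of lower members and 12 of 27 of members that did not pass, so the letters were found in each class. The 82 genes of the wider list had them in 13 of 68 windows (19.1%). Cell cycle homology letters, TTTGAA or TTCGAA on either strand, were in 3 of 44 member windows (6.82%), against 10.8% for tested genes and 16.6% of all windows. A match is a description of letters and not a bound site.

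The following 4 sequences run from 200 bases before to 20 bases from the RefSeq start, 5′ to 3′ along the gene, with E2F-type letters in capitals. They are shown because *TOPBP1*, *LIG1* and *POLD2* were the members called under all 15 settings of the fit (as reported, with other scalings, filters, pseudocounts and variance model, with neighbouring genes subtracted, and with each library left out), and *MCM7* was the lower member with the largest change. *POLD2* holds no such letters, *TOPBP1* and *LIG1* hold 1 match each, beginning 7 and 114 bases before the start, and *MCM7* holds 2, beginning 187 and 9 bases before it.
TOPBP1 (chr3:133661922-133662141, minus strand): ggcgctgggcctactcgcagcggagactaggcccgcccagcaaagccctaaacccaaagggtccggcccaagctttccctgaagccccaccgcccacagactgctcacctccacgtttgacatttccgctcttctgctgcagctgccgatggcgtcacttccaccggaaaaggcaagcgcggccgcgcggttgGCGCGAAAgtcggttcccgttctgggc
LIG1 (chr19:48170325-48170544, minus strand): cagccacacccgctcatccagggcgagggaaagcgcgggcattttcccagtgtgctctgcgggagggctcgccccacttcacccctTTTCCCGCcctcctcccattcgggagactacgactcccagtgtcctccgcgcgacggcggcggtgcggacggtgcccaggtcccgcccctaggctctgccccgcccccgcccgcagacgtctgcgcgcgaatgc
POLD2 (chr7:44123529-44123748, minus strand): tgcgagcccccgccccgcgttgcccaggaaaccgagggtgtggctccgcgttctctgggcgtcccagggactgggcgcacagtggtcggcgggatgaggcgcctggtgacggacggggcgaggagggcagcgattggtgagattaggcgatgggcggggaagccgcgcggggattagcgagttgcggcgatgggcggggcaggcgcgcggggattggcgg
MCM7 (chr7:100101378-100101597, minus strand): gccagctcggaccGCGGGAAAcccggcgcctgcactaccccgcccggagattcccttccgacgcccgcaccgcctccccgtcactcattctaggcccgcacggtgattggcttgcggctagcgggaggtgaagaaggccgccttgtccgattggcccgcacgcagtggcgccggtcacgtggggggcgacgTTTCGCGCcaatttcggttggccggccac

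Origin recognition was nearly level, with 1 of 6 subunits past the threshold. *ORC5* (ENSG00000164815, chr7:104126341-104208047, minus strand), a subunit of the complex that marks origins, was at 729.8, 619 and 719 in parental libraries 1, 2 and 3 and at 511, 455 and 513 in resistant libraries 7, 8 and 9. Where values are set against each other in the text that follows, the parental libraries 1, 2 and 3 come before the resistant libraries 7, 8 and 9. For *ORC5* all resistant libraries lay below all parental ones, with a log2 fold change of -0.48 (SE 0.11, adjusted p = 0.00520, limma). The 50 tested genes nearest to *ORC5* on the chromosome gave -0.43 as their median log2 fold change, and after the median of the surrounding genes was subtracted in each library, an alternative called local centring below, its own value was -0.04 (adjusted p = 0.806, limma). *ORC2* read 687, 684 and 879 in parental and 754, 679.7 and 809 in resistant libraries, and the groups overlapped. Its log2 fold change was 0.00 with a 95% interval of -0.26 to 0.27. *ORC1*, *ORC3*, *ORC4* and *ORC6* had values from -0.17 (*ORC4*) to 0.13 (*ORC3*), and none passed.

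Among the licensing factors the inhibitor fell and the loaders did not pass the threshold. *GMNN* (ENSG00000112312, chr6:24774931-24786099, plus strand) was at 1817, 1563 and 1649 in parental and 1392, 1175 and 1420.0 in resistant libraries. Its groups did not overlap, and it fell by 0.34 on the log2 scale (SE 0.09, adjusted p = 0.0180, limma), while its chromosomal neighbours had a median of 0.02. *CDT1*, the loader that geminin binds, was at 2589, 2599 and 2378 against 2470.4, 2352 and 2221, with a log2 fold change of -0.10 (95% interval -0.26 to 0.05). *CDC6*, the ATPase that works with it, was at 2978, 2697 and 2751 against 2930.0, 2391 and 2586, with -0.10 (95% interval -0.28 to 0.09). For both loaders the libraries of the groups overlapped. The *GMNN* call was lost without parental library 1 (adjusted p = 0.0613, limma), without resistant library 8 (0.0669) and in limma without the intensity trend (0.0654).

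The 6 subunits of the MCM ring, which work in equal numbers, did not move as a unit: 2 fell and 4 did not pass. *MCM7* (ENSG00000166508, chr7:100092233-100101940, minus strand) was at 23162, 22096 and 23238 in parental and 14399, 13182 and 14410.1 in resistant libraries. The gap between the groups was many times the spread within either, and the log2 fold change was -0.71 (SE 0.06, adjusted p = 1.54e-05, limma). *MCM2* (ENSG00000073111, chr3:127598410-127622436, plus strand) was at 24608, 24121 and 24034 against 21534, 20342 and 20857, with a log2 fold change of -0.21 (SE 0.05, adjusted p = 0.0107, limma). *MCM2* thus had the smaller change, with groups that did not overlap, and its neighbours had a median of 0.12 against -0.50 for those of *MCM7*. After local centring *MCM7* was at -0.18 (adjusted p = 0.0982, limma) and *MCM2* at -0.34 (adjusted p = 0.00171).

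The other MCM subunits gave values on both sides of 0. *MCM5* read 3932, 3845 and 3735 in parental and 4797, 3985 and 4488 in resistant libraries, with no overlap and a log2 fold change of 0.20 (SE 0.08, adjusted p = 0.0587, limma). It missed the threshold but passed without resistant library 8 (adjusted p = 0.0175, limma), the lowest of the resistant libraries, with quantile normalization (0.0195) and after local centring (0.0279). *MCM6* was at 4045, 4361 and 3715 against 4092, 3950.5 and 3869, with a log2 fold change of -0.02 (95% interval -0.18 to 0.14). *MCM3* was at 10647, 10661 and 9996 against 10946, 10777 and 10679, and *MCM4* at 14107, 14366 and 14104 against 14310.0, 13386 and 12577. Their log2 fold changes were 0.05 and -0.08, and *MCM3* passed with quantile normalization (adjusted p = 0.0165, limma). The *MCM2* call was lost with quantile normalization (adjusted p = 0.363, limma) and without the trend (0.0572).

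Of the 10 genes of helicase activation and firing, 1 rose and 2 fell. *TOPBP1* (ENSG00000163781, chr3:133598175-133662380, minus strand), a scaffold that brings initiation factors together and activates the checkpoint kinase ATR, was at 4496, 4206 and 4282 in parental and 5917, 6142 and 5953 in resistant libraries. Each resistant library was above each parental one by more than the spread within groups, with a log2 fold change of 0.47 (SE 0.06, adjusted p = 0.000170, limma). The call held under all 15 settings, and the 50 genes around it had a median of 0.13. Its printed promoter has 1 E2F-type match close to the start. *DBF4* (ENSG00000006634, chr7:87876216-87909553, plus strand), the activating subunit of CDC7, was at 1811, 1883 and 1749 against 1356, 1299.9 and 1136, with a log2 fold change of -0.52 (SE 0.08, adjusted p = 0.000846, limma). Its neighbours were lower too, with a median of -0.38, and local centring left -0.21 (adjusted p = 0.0995). The kinase *CDC7* itself was at 1476, 1306 and 1138 against 1398, 1307 and 1254, with a log2 fold change of 0.02 (95% interval -0.20 to 0.24).

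*CDC45* (ENSG00000093009, chr22:19479457-19520612, plus strand), which joins MCM and GINS in the active helicase, was at 1739, 1544 and 1647 in parental and 1475, 1275 and 1256 in resistant libraries. It fell by 0.30 on the log2 scale (SE 0.09, adjusted p = 0.0201, limma) beside neighbours with a median of 0.00. The call was lost without parental library 1 (adjusted p = 0.0625, limma), parental library 3 (0.0610), resistant library 8 (0.0708) or resistant library 9 (0.0703), and without the trend (0.0641). The 4 GINS subunits did not pass, with values from -0.15 (*GINS2*) to 0.18 (*GINS1*). *GINS4* was the most variable of them, at 362, 401 and 541 against 384, 477 and 424, and its 95% interval of -0.35 to 0.34 left room for a change as large as that of *CDC45* in either direction. *GINS1* passed without parental library 3 (adjusted p = 0.0406, limma) and with quantile normalization (0.0489). *RECQL4* had -0.18 and passed without resistant library 9 (0.0336), and *MCM10* had -0.02.

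Of the 10 genes of the replicative polymerases, 1 rose and 4 fell, and 3 of these 5 calls (*POLD1*, *POLE* and *POLE2*) were lost after local centring. Both measured core subunits of polymerase delta, the catalytic *POLD1* and its partner *POLD2*, were among the lower genes. *POLD2* (ENSG00000106628, chr7:44114631-44124358, minus strand) was at 8974, 8892 and 9161 in parental and 7171, 6877 and 7035 in resistant libraries, with a log2 fold change of -0.36 (SE 0.05, adjusted p = 0.000598, limma). Its call held under all 15 settings, its neighbours had a median of 0.03, and its printed promoter has no E2F-type match. *POLD1* (ENSG00000062822, chr19:50384204-50418018, plus strand) was at 5602, 5905 and 5559 against 4878, 4814 and 5069, with a log2 fold change of -0.21 (SE 0.06, adjusted p = 0.0176, limma). The smaller fall of *POLD1* was matched by its neighbours, with a median of -0.28, and local centring turned it to 0.04 (adjusted p = 0.602, limma). Its call was also lost without parental library 2 (0.0575), resistant library 7 (0.0568) or resistant library 8 (0.0581), without the trend (0.0683) and with quantile normalization (0.0524). *POLD3* had a log2 fold change of 0.04 (95% interval -0.16 to 0.23).

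The catalytic subunit of polymerase epsilon and its second subunit changed in opposite directions. *POLE* (ENSG00000177084, chr12:132623753-132687376, minus strand) was at 6332, 6245 and 6887 in parental and 4761, 4699 and 4209 in resistant libraries, with a log2 fold change of -0.51 (SE 0.07, adjusted p = 0.000339, limma). *POLE2* (ENSG00000100479, chr14:49643555-49688422, minus strand) was at 545, 534 and 540.1 against 737, 646 and 672, with a log2 fold change of 0.34 (SE 0.09, adjusted p = 0.0156, limma). Each moved with its neighbours, whose medians were -0.74 around *POLE* and 0.33 around *POLE2*. Local centring gave 0.21 (adjusted p = 0.0764, limma) for *POLE*, the opposite sign, and 0.06 (0.658) for *POLE2*. The *POLE2* call was also lost without resistant library 7 (0.0652). *POLE3*, the histone-fold subunit, had -0.07.

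In the primase complex, *POLA1* (ENSG00000101868, chrX:24693873-24996986, plus strand), the catalytic subunit of polymerase alpha, was at 4136, 3624 and 3625 in parental and 3510.2, 3192 and 3087 in resistant libraries. It fell by 0.22 on the log2 scale (SE 0.08, adjusted p = 0.0492, limma), just inside the threshold. It passed under 6 of the 15 settings. The call was lost without any one of parental libraries 1, 2 and 3 (adjusted p = 0.140, 0.0530 and 0.0707, limma) or of resistant libraries 8 and 9 (0.127 and 0.149). Its partner *POLA2* was at 2157, 1819 and 2169.9 against 2068, 2114 and 2060.2, with overlapping groups and a log2 fold change of 0.03 (95% interval -0.15 to 0.21). The primase subunits *PRIM1* and *PRIM2* had -0.18 and 0.15, and neither passed. *PRIM1* lies at chr12:56730438-56752374 among genes with a median of -0.65, of which 8% were higher in resistant cells. Set against those neighbours it was 0.40 higher on the log2 scale (adjusted p = 0.0116, limma).

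In the clamp loader, 2 of the 5 RFC subunits fell, and the clamp missed the threshold. *RFC5* (ENSG00000111445, chr12:118013588-118033130, plus strand) was at 2318, 2229.7 and 2345 in parental and 1477, 1469 and 1496 in resistant libraries, with a log2 fold change of -0.63 (SE 0.06, adjusted p = 5.36e-05, limma). *RFC2* (ENSG00000049541, chr7:74231499-74254458, minus strand) was at 1658, 1497 and 1519.7 against 1105, 1033 and 1119.6, with a log2 fold change of -0.52 (SE 0.08, adjusted p = 0.000560, limma). In both genes the groups stood far apart, and in both the neighbours were lower as well, with medians of -0.45 and -0.49. After local centring the values were -0.18 (adjusted p = 0.0507, limma) for *RFC5* and -0.02 (0.861) for *RFC2*. *RFC4* was at 1590.0, 1606 and 1481 against 1479, 1435 and 1480.0, lower in every resistant library by a small margin, with a log2 fold change of -0.09 (95% interval -0.25 to 0.07). *RFC1*, the large subunit, and *RFC3* had 0.11 and 0.19. *PCNA*, the clamp itself, was at 11295, 11253 and 10792 against 10569, 9240.2 and 9783, with a log2 fold change of -0.17 (SE 0.06, adjusted p = 0.0551, limma). It passed without resistant library 7 (adjusted p = 0.0339, limma), with TMM scaling (0.0386) and after local centring (0.0407). *RFC3* passed without parental library 1 (0.0292) and with quantile normalization (0.0305).

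Of the 3 subunits of RPA, which coats single-stranded DNA, 1 rose and the other two did not pass the threshold. *RPA2* (ENSG00000117748, chr1:27891524-27914746, minus strand) was at 1665, 1431 and 1499 in parental and 1942, 1683 and 1812 in resistant libraries, with a log2 fold change of 0.24 (SE 0.08, adjusted p = 0.0453, limma). Its groups were separated by a small gap, and it passed under 7 of the 15 settings. The call was lost without parental library 2 (adjusted p = 0.131, limma), parental library 3 (0.124), resistant library 7 (0.153) or resistant library 9 (0.0968). *RPA1*, the largest subunit, was at 6499, 5991 and 6033 against 6368, 5769 and 5946, with a log2 fold change of -0.04 (95% interval -0.18 to 0.11). *RPA3*, the smallest, was at 617, 576 and 600.5 against 440.0, 434 and 578. Resistant library 9 lay within the parental range for *RPA3*, whose log2 fold change of -0.32 missed the threshold (adjusted p = 0.0702, limma) and passed without that library (0.0131).

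Of the enzymes that join lagging strand fragments, the ligase fell and the flap endonuclease did not pass. *LIG1* (ENSG00000105486, chr19:48115445-48170603, minus strand) was at 3667, 3729 and 3643 in parental and 3026, 2927 and 3038 in resistant libraries. The 3 values of each group lay close together, and the log2 fold change was -0.30 (SE 0.06, adjusted p = 0.00295, limma), past the threshold under all 15 settings. Its neighbours were higher on balance, with a median of 0.19, and local centring gave -0.50 (adjusted p = 0.000711, limma). *FEN1*, which cuts the flaps, was at 5987, 5444 and 5390.5 against 6193, 5766 and 5977, with 0.09 (95% interval -0.05 to 0.24).

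Among the enzymes of nucleotide supply, *RRM2* (ENSG00000171848, chr2:10120698-10211725, plus strand), the regulated subunit of ribonucleotide reductase, was at 5812, 5622 and 6011 in parental and 5344, 4519 and 5004 in resistant libraries. It fell by 0.23 on the log2 scale (SE 0.07, adjusted p = 0.0274, limma). The call was lost without parental library 1 (adjusted p = 0.0549, limma), parental library 3 (0.10), resistant library 8 (0.0993) or resistant library 9 (0.0546), and without the trend (0.0975). Its partner *RRM1* had 0.07 (95% interval -0.09 to 0.23). *TYMS*, which makes thymidylate, was at 2234, 2287 and 2257 against 2293, 2179 and 2128, with overlapping groups and a log2 fold change of -0.04 (95% interval -0.18 to 0.10).

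*CHAF1B* (ENSG00000159259, chr21:36385392-36419015, plus strand), the middle subunit of the CAF-1 complex that places histones on new DNA, had the largest change of the 51 members. It was at 1874, 1736 and 1705 in parental and 3819.8, 3391 and 3662 in resistant libraries, with a log2 fold change of 1.03 (SE 0.07, adjusted p = 5.30e-06, limma), a ratio of group means of 2.05. The large subunit *CHAF1A* was at 1879.5, 1769 and 1853 against 1867, 2022 and 1735, with overlapping groups and a log2 fold change of 0.03 (95% interval -0.14 to 0.20). *CHAF1B* lies on chromosome 21 among genes with a median of 0.91, 98% of which were higher in resistant cells, and local centring left 0.12 (adjusted p = 0.264, limma).

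RNA values of paired genes were compared within each library as log2 ratios of value + 1, over 6 pairs. The proteins of a pair are subunits of 1 complex, interchangeable subunits, or a factor and its inhibitor. The design of 3 against 3 libraries cannot give an exact two-sided permutation p below 0.10, so no pair could pass 0.05. The ratio of *CDT1* to its inhibitor *GMNN* was 0.51, 0.73 and 0.53 in parental and 0.83, 1.00 and 0.65 in resistant libraries. The groups overlapped, with a difference of 0.23 (exact p = 0.2, adjusted over the pairs 0.24). The ratio of *RRM2* to *RRM2B*, the subunit induced by p53, was 1.76, 1.91 and 1.76 in parental and 2.06, 1.73 and 1.74 in resistant libraries, and the difference of 0.03 was within the spread (exact p = 1). In the other 4 pairs the groups did not overlap, each with the smallest possible exact p of 0.1 (adjusted 0.15). The *CHAF1B* to *CHAF1A* ratio was 0.00, -0.03 and -0.12 in parental and 1.03, 0.74 and 1.08 in resistant libraries. The *POLE* to *POLE2* ratio was 3.54, 3.54 and 3.67 in parental and 2.69, 2.86 and 2.64 in resistant libraries. The ratio of *MCM7* to the mean of *MCM2* to *MCM6* was 1.36, 1.28 and 1.43 in parental and 0.65, 0.62 and 0.73 in resistant libraries. In each of these 3 pairs every resistant library lay on the same side of every parental one, with differences of 1.00, -0.85 and -0.69. The *CDC7* to *DBF4* ratio was -0.29, -0.53 and -0.62 in parental and 0.04, 0.01 and 0.14 in resistant libraries, with a difference of 0.55. After local centring these 4 differences were -0.05 for *CHAF1B* to *CHAF1A*, 0.15 for *POLE* to *POLE2*, -0.19 for *MCM7* and 0.23 for *CDC7* to *DBF4*, so that the sign was turned for *CHAF1B* to *CHAF1A* and for *POLE* to *POLE2*.

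**Figure D3:**
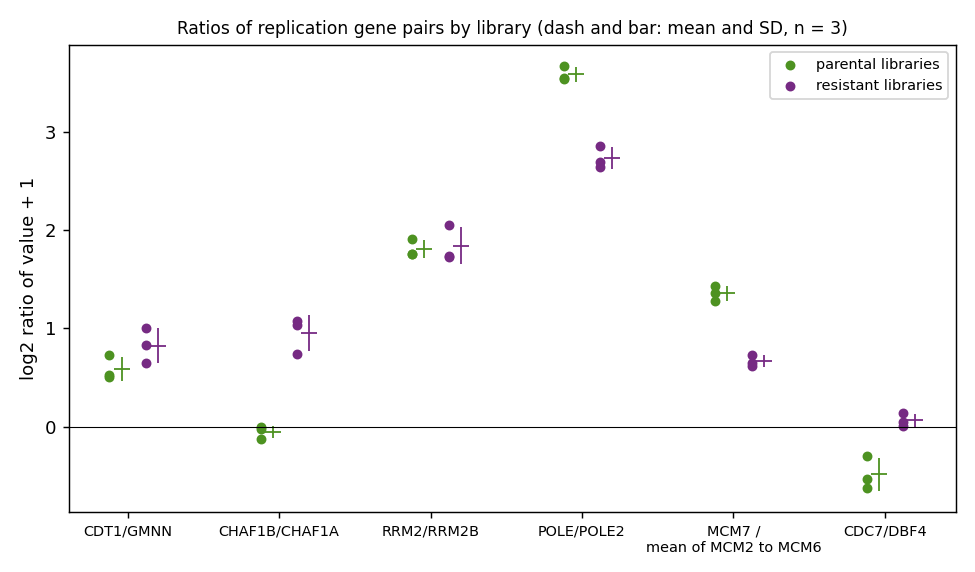
Log2 ratio of paired genes in each library for 6 pairs, with parental libraries 1 to 3 and resistant libraries 7 to 9 as points, and a dash and bar for the group mean and SD (n = 3). The groups are apart in CHAF1B to CHAF1A, POLE to POLE2, MCM7 to the other MCM subunits and CDC7 to DBF4, and overlap in the other two.

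Levels of different members were compared as value per kilobase of the canonical transcript. This adjusts for length only approximately, since the values are per gene and the transcripts in use were not determined. On that scale *MCM7* was the highest member in parental cells at 9255 ± 259 (SD, n = 3), followed by *PCNA* at 8709.5 ± 218 and *MCM2* at 7063 ± 90.0. In resistant cells *PCNA* led at 7730.5 ± 524, with *MCM2* at 6089 ± 174 and *MCM7* at 5674 ± 286. *POLD2* came next at 5599 ± 85.8 in parental and 4368 ± 91.3 in resistant cells. The lowest members were *GINS4* at 115 ± 25 and 114 ± 12.4 and *ORC4* at 122 ± 16.1 and 108 ± 15.0, whose SDs overlapped in both groups. *PCNA*, *MCM2* and *MCM7* thus stood far above *GINS4* and *ORC4* in both groups.

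**Figure D4:**
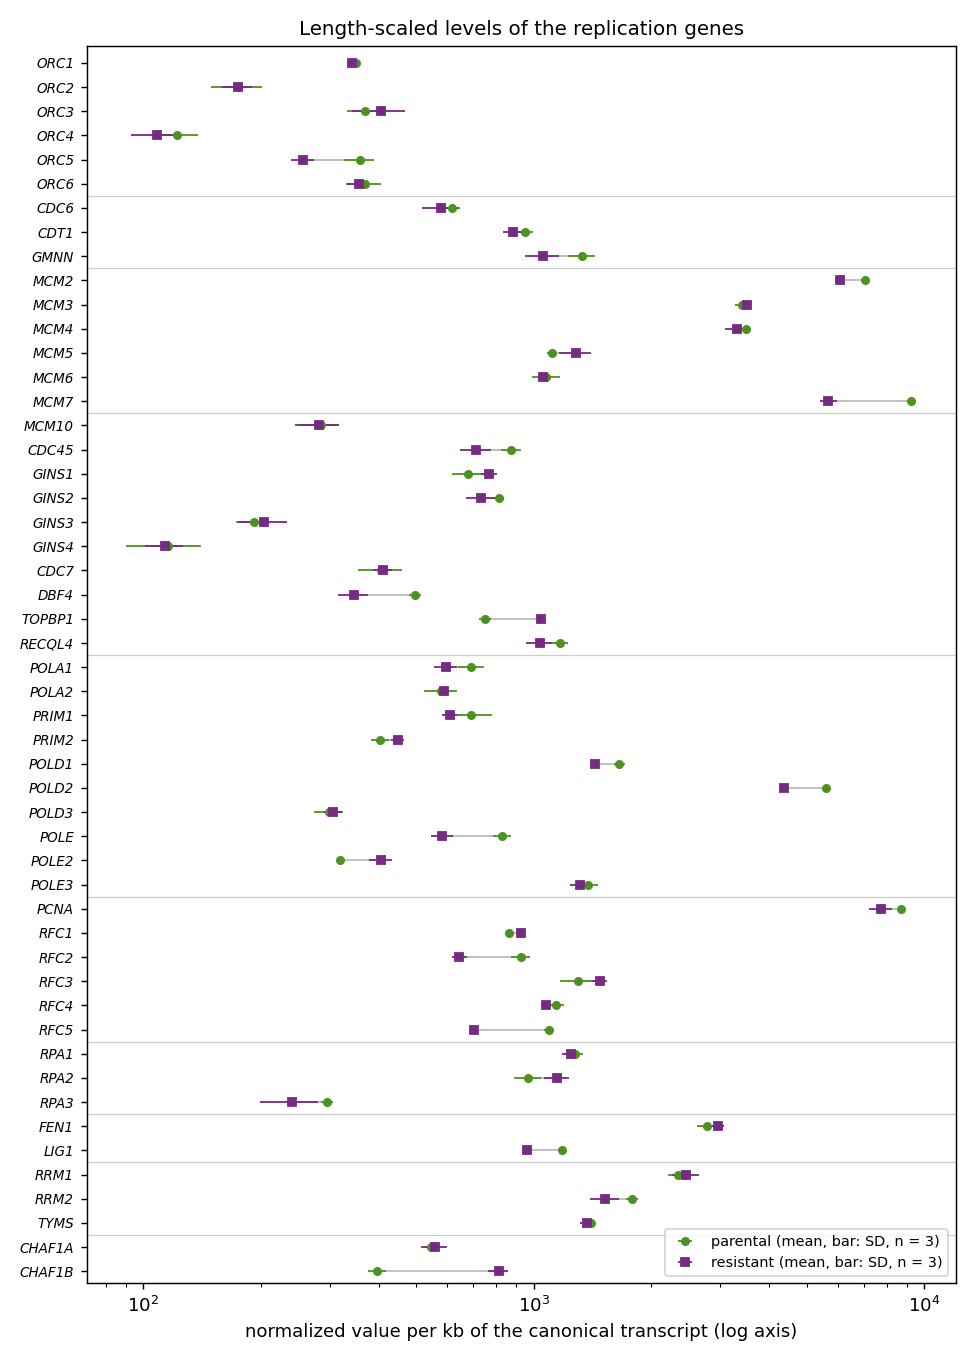
Normalized value per kilobase of transcript for the 51 members on a log axis, parental and resistant group means with SD (n = 3 libraries). MCM7 is the highest member in parental and PCNA in resistant cells, and GINS4 and ORC4 are the lowest.

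The members with large changes sat among genes that changed the same way. For each member the median log2 fold change of the 50 nearest tested genes on its chromosome was taken, without the member. Over the 51 members its Pearson correlation with the member's own value was 0.745 (Spearman 0.438), and 0.641 (0.404) without *CHAF1B*, against 0.295 (0.316) over 16306 genes. These correlations are across genes, which share libraries and partly share neighbours, and are given as a description. The 16306 genes include weakly expressed ones with a larger spread between libraries, and no correlation at matched expression was taken. A neighbour median beyond 0.25 in size, a limit chosen after the values were seen, was found beside 11 members. Of these 9 passed the threshold with the sign of their neighbours: *ORC5*, *MCM7*, *DBF4*, *POLD1*, *POLE*, *POLE2*, *RFC2*, *RFC5* and *CHAF1B*. *PRIM1* and *RFC3* did not pass. All 6 members that differed by more than 0.5 were among the 9. Beside the other 9 called members, *GMNN*, *MCM2*, *CDC45*, *TOPBP1*, *POLA1*, *POLD2*, *RPA2*, *LIG1* and *RRM2*, the neighbours were within 0.25 of 0.

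After local centring 11 members passed (21.6%), 3 higher and 8 lower, against 30.2% of all genes. Of these, 8 were among the 18: *GMNN*, *MCM2*, *CDC45*, *TOPBP1*, *POLA1*, *POLD2*, *LIG1* and *RRM2*. The other 3, *MCM5*, *PRIM1* and *PCNA*, missed the threshold as reported. *ORC5*, *DBF4*, *MCM7* and *RFC2* all lie on chromosome 7, as does *POLD2*, whose neighbours were level. DNA copy number was not measured, and its part in these differences was not tested.

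**Figure D5:**
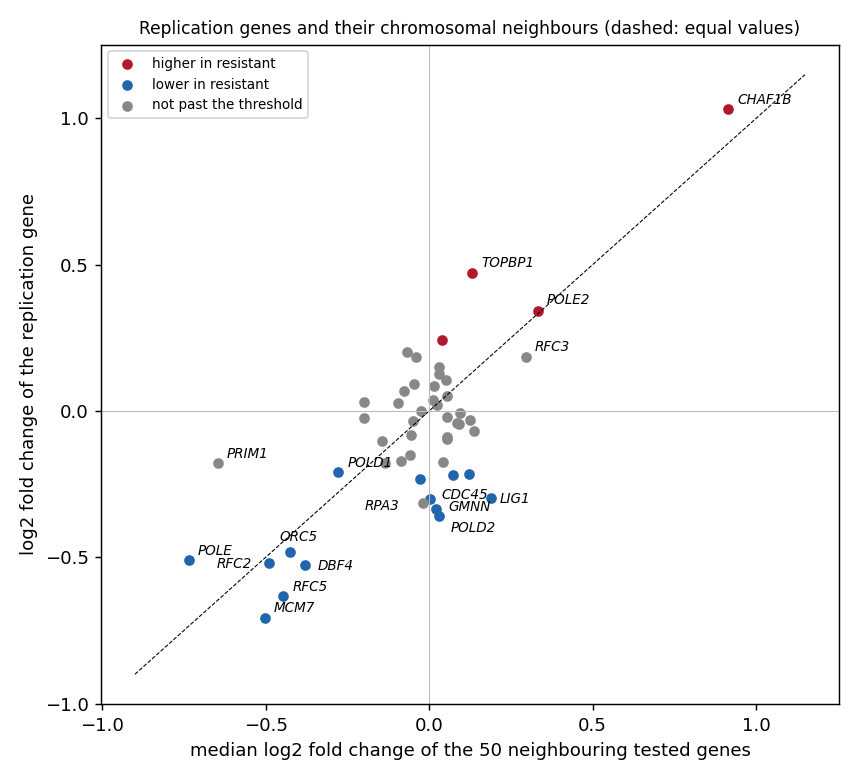
Log2 fold change of each of the 51 members against the median of the 50 tested genes nearest to it on the chromosome, with the dashed line where both are equal. CHAF1B, POLE2, POLE, MCM7, RFC2, RFC5, ORC5 and DBF4 lie within 0.25 of the line. PRIM1, TOPBP1 and MCM5 lie above it by more than 0.25, and LIG1, POLD2, GMNN, MCM2, CDC45, RPA3 and POLA1 below it by more than 0.25.

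A wider list of 82 replication genes was read beside the members. Of these, 33 passed (40.2%), 11 higher and 22 lower, with a median log2 fold change of -0.01, so this share too was near the 37.7% of all genes. With quantile normalization the split was 17 higher of 33. *TIMELESS*, which protects forks and binds *TIPIN*, was at 4818, 4566 and 4877 in parental and 2570.1, 2563 and 2569.8 in resistant libraries, and had the smallest adjusted p of the list, 3.96e-06 by limma, with a log2 difference of -0.89. It lies near *PRIM1* and *CDK2* on chromosome 12, among neighbours with a median of -0.61, and was still lower after local centring at -0.30 (0.00345). *DONSON*, which helps assemble the CMG helicase, was at 1642, 1358 and 1554 against 2919.5, 2834 and 3061, higher at 0.96 (adjusted p = 1.77e-05) beside chromosome 21 neighbours with a median of 1.04. Local centring ended that call, at -0.06 (adjusted p = 0.579, limma).

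*LRWD1*, which holds the origin recognition complex on chromatin, was at 2877, 2821 and 3117 in parental and 1741, 1736 and 1731 in resistant libraries, with -0.76 (adjusted p = 2.02e-05) by limma. The kinase *CDK2* was at 2871, 2920.0 and 2925 against 2083, 1966 and 1877, with -0.56 (adjusted p = 0.000137). Both lay among lower neighbours, with medians of -0.61 and -0.60, and local centring ended both calls, at -0.18 (adjusted p = 0.0908, limma) and -0.03 (0.807). *RNASEH2A*, which removes RNA from DNA, was at 1796, 1999 and 2105 against 1346, 1164 and 1202, with -0.67 (adjusted p = 0.000256), and *DCTPP1*, which hydrolyses dCTP and modified forms of it, was at 3242, 3200.1 and 3333 against 2336, 2163 and 2314, with -0.52 (adjusted p = 0.000163). Both were lower by more than their neighbours, whose medians were -0.17 and -0.09. *SKP2* and *UHRF1* were also lower, at -0.38 and -0.35 on the log2 scale.

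Among the higher genes of the wider list, *E2F2*, an activator of replication genes, was at 790.0, 734 and 679.5 in parental and 1241, 1068 and 1081 in resistant libraries, with 0.62 (adjusted p = 0.000679) by limma. Its neighbours had a median of 0.05, and its call held under all 15 settings. Of the 13 E2F and RB factors of the list, 6 passed (46.2%, against 37.7% of all genes), 2 higher and 4 lower. *RBL2* was the other higher gene, at 0.58, and *E2F1*, *E2F5*, *E2F6* and *E2F7* were lower, at -0.29, -0.48, -0.50 and -0.39. The group means of *E2F1* were 4901 in parental and 4004 in resistant cells. *SUPT16H*, a subunit of the histone chaperone FACT, was at 13012, 11850.2 and 11885 against 19258, 17975 and 17344, and *WDHD1*, which links polymerase alpha to the helicase, was at 2021, 1948 and 1959.5 against 2739.8, 2787 and 2672. *DUT*, which keeps uracil out of DNA, was at 2216, 2103 and 1974 against 3083, 2884 and 3148. These 3 rose by 0.57, 0.47 and 0.54 on the log2 scale beside neighbours with medians of 0.43, 0.36 and 0.62. Local centring ended all 3 calls, at 0.11 (adjusted p = 0.235, limma), 0.08 (0.383) and -0.06 (0.582).

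Some members share exonic bases with another gene, and the library kit as described does not mark strand. Overlap on the opposite strand was found for 16 members and on the same strand for 6. *MCM7* shares 392 bases with *AP4M1*, *RFC5* 186 with *WSB2* and *DBF4* 145 with *SLC25A40*, and the reads of these bases cannot be told apart. The group means of *AP4M1* were 1080 in parental and 650 in resistant cells. *CHAF1B* shares 89 bases on its own strand with *MORC3*, which was at 728 and 2070, and *PRIM1* shares 139 with *NACA*, which was at 7370 and 5260. On the same strand, *POLD1* also shares 426 bases with ENSG00000142539 (6.53 and 99.3) and *POLA2* 2012 with ENSG00000285816 (24.1 and 15.5). *FEN1* shares 49 with *FADS2* (17200 and 12200) and *POLD3* 123 with *LIPT2-AS1* (64.5 and 61.8). Pseudogenes carrying a member's name were found for 11 members, and none passed the filter on low values.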

How the data were processed

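RNA from parental and onvansertib-resistant H526 cells (3 libraries each) was made into libraries with a kit that is not described as marking strand. The authors trimmed the reads with Trimmomatic 0.38, aligned and quantified them with RSEM 1.3.1 (STAR is also in the submitters' processing notes) on GRCh38 with Gencode v43. The authors scaled the counts by DESeq2 and deposited this normalized signal for each gene and library. Whole reads were not recovered: 56.9% to 66.8% of low values lay within 0.1 of a whole multiple of the step that 1 read is worth, so no count test was run. The step put the depth at 25990000 to 28350000 reads in parental and 22640000 to 22880000 in resistant libraries.

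Of 62757 rows, 47 second copies of pseudoautosomal genes were left out. Symbols, positions and canonical transcript lengths came from Gencode v44 for 62639 rows. Genes averaging at least 10 entered limma 3.58.1 under R 4.3.3 as log2(value + 1) (eBayes with an intensity trend, condition only, Benjamini-Hochberg adjustment at 0.05), in place of the count model. The limma step was tested on simulated data. It called 62 of 100 genes given a log2 change of 1 in size and 88 of 100 given a change of 2. It also called 8 unchanged genes. The changed genes were drawn from all 16347 genes tested, at any level, and were far fewer than the 6161 called in the data. The members vary less between libraries, with a median SD of 0.09 against 0.15 over all genes. The simulated shares are therefore not the rate at which a change in a member would be called. Pairs were compared by an exact two-sided permutation test. Other steps used Python 3.11.15, pandas 2.3.3, numpy 2.4.6 and matplotlib 3.10.9.

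The members, the wider list, the markers and the tests were chosen with earlier results of these data known. One marker is not reported here. Values in every library are given for up to 4 members past the threshold per role by smallest p (*POLA1*, a further polymerase, and *PCNA*, *MCM5* and *RPA3*, which missed the threshold, were added after their values were seen), for the member with the largest p in each role, for the genes of the pairs, and for up to 12 genes of the wider list, *SKP2* and *UHRF1* by fold change only. The other E2F and RB factors past the threshold were added after their values were seen, by fold change or group mean. The 15 settings are the fit as described, TMM scaling, quantile normalization, pseudocounts of 0.1 and 10, a mean of at least 50 or any mean in place of 10, no trend, local median centring over 51 genes, and each library left out in turn.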

Additional observations from a re-analysis of the deposited data

How the results depend on the processing

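Over the 15 settings the number of members past the threshold ranged from 11 to 19. It was 18 as reported, 11 without the intensity trend (8 lower) and 11 after local centring (8 lower), and quantile normalization gave 8 higher members. With single libraries left out, the members past the threshold numbered 14 to 16, the higher ones 2 to 5 (2 without resistant library 7) and the lower ones 9 to 14 (9 without resistant library 8). The median over the members then ranged from -0.0897 (without resistant library 7) to -0.0352. The higher genes of the wider list numbered 17 with quantile normalization and 7 after local centring. Local centring turned the *CHAF1B* to *CHAF1A* difference to -0.053 and the *POLE* to *POLE2* difference to 0.15, and moved those of *MCM7* to the other MCM genes to -0.19 and of *CDC7* to *DBF4* to 0.23. The cause of these changes was not tested.

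Among single genes, quantile normalization changed the sign of *ORC1* (0.014), *MCM4* (0.055), *MCM6* (0.024), *MCM10* (0.030), *GINS4* (0.015) and *RPA1* (0.026). TMM scaling did so for *ORC2* (-0.027), *CDC7* (-0.0072) and *POLA2* (-0.0014). Local centring did so for *CDT1* (0.0062), *MCM3* (-0.0025), *MCM6* (0.18), *PRIM1* (0.40), *POLD1* (0.043), *POLE* (0.21), *RFC3* (-0.080), *RPA1* (0.012), *DONSON* (-0.064) and *DUT* (-0.057). With single libraries left out, log2 fold changes that crossed 0 ranged from -0.059 to 0.12 for *ORC2*, -0.10 to 0.039 for *ORC6*, -0.082 to 0.034 for *MCM6*, -0.12 to 0.047 for *MCM10*, -0.029 to 0.16 for *GINS3*, -0.13 to 0.16 for *GINS4*, -0.074 to 0.11 for *CDC7*, -0.057 to 0.071 for *POLA2*, -0.0032 to 0.10 for *POLD3*, -0.075 to 0.0025 for *RPA1* and -0.027 to 0.084 for *CHAF1A*. None of these 11 genes passed the threshold as reported. Of 882 comparisons of single genes with an alternative, 781 kept their direction and side of the threshold, 53 lost a call, 14 gained one and 39 changed sign. Among those that changed sign, 4 also lost a call (*POLD1*, *POLE*, *DONSON* and *DUT*) and 1 gained one (*PRIM1*).

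No paired analysis was possible because the labels number the parental libraries 1, 2 and 3 and the resistant ones 7, 8 and 9, with none shared, and do not say which of them were collected together. With 3 libraries per group, an interval that includes 0 does not show that a member did not change.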
